A study of Rattus norvegicus with 79 samples.

Results

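Arc, Homer1, Ptgs2, Rheb, Dusp1 and Dusp6 are immediate early genes whose products act at synapses and in signalling rather than as transcription factors. All probe sets that the platform annotation assigns to 1 of these 6 symbols were taken, which gave 6 of 4737 genes with a probe set of their own and 16 of the 8799 probe sets on the array. Homer1 had 6 probe sets, Dusp1 had 3, Ptgs2, Rheb and Dusp6 had 2 each, and Arc had 1. One further probe set lists Homer1 together with another gene and was left out. Of the 16, 14 were among the 5244 probe sets tested, and 2 Dusp1 probe sets lay among the 40% of lowest mean signal.

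RNA came from the CA1 cell layer of the hippocampus of male Fischer 344 rats, with 1 array for each rat. Young rats were 3 months and aged rats 24 months old. The same time of killing, 24 h after the last trial in a water maze, is recorded for all rats. For the cage controls this does not show that they had trials. Both ages had cage controls (3 young, 5 aged), yoked rats that swam without a platform (6 and 8), rats trained to a visible platform (4 and 8) and rats trained to a hidden platform. There were 6 young hidden platform rats. The aged hidden platform rats were 13 unimpaired learners, 10 impaired learners and 16 whose titles carry a letter B that the labels do not explain. The labels give no transgene and no drug treatment. The labels name no litter or batch, and p-values measure the spread between rats. That 2 rats shared a cage was not taken into account in any fit or permutation.

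Immediate early genes are transcribed within minutes of strong synaptic input, and their mRNA usually decays within hours. Arc protein drives removal of AMPA receptors from synapses and Arc mRNA is carried into active dendrites. Homer1 encodes a scaffold that links metabotropic glutamate receptors to calcium stores, with a short activity-induced form that uncouples them. Ptgs2 (COX-2) makes prostaglandins from arachidonic acid, Rheb is a small GTPase that switches on mTOR, and Dusp1 and Dusp6 remove phosphate from MAP kinases.

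Array quality differed between groups. The median Spearman correlation of an array with the others was between 0.223 and 0.940, and it was under 0.85 on 14 arrays. Of these, 4 came from aged visible platform rats, 2 from the 3 young cage controls, 2 from the 4 young visible platform rats and 2 from impaired rats, while the B group gave 0. Values without these 14 arrays are given as those over the other 65 arrays where they matter. Among CA1 and pyramidal neuron markers, 8 of 12 were on the array. Nrgn, Nell2 and Hpca were each above the 99th percentile of mean signal, while Camk2a, Spink8 and Slc17a7 fell below the filter. Some markers of interneurons, astrocytes, microglia, oligodendrocytes, vessels, blood and choroid plexus were also above the filter, among them Ttr of choroid plexus. Bok, Calb2 and Grik4 of the dentate gyrus and CA3 list were above it too. Tdo2, Vip, Cd74, Csf1r, Itgam, Vwf and Aqp1 of these lists fell below it. Fewer cells of a type and less RNA per cell cannot be told apart in such samples.

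Arc was highest in young hidden platform rats. Its 1 probe set, U19866_at, read 3641.4, 4722.2, 3761, 3212.2, 3221.4 and 1921.4 in the 6 rats. In young yoked rats the lowest, median and highest signals were 1571.5, 1993.1 and 2530.3. The young hidden and yoked groups overlapped only through rat 39, whose array is 1 of those of low correlation. In young visible platform rats Arc read 1383.5, 2379.2, 1815.2 and 1604. In young cage controls it read 2619.2, 849.1 and 983.7. Every young hidden platform rat but rat 39 was above all young rats of the other treatments.

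Among aged rats the groups lay close together. The median Arc signal was 2907.1 in aged cage controls (1870.7 to 3240.9), 2596.6 in aged yoked rats (635.7 to 4013.6) and 2406.15 in aged visible platform rats (1031.1 to 2803.9). It was 2579 in unimpaired rats (1521 to 3629.8), 2487.5 in impaired rats (286.2 to 4285.2) and 2809.55 in B rats (1727.4 to 3331.8). All 6 aged groups overlapped each other. In the order of group means on the log2 scale, no neighbouring groups differed by more than their mean SD.

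**Figure D1:**
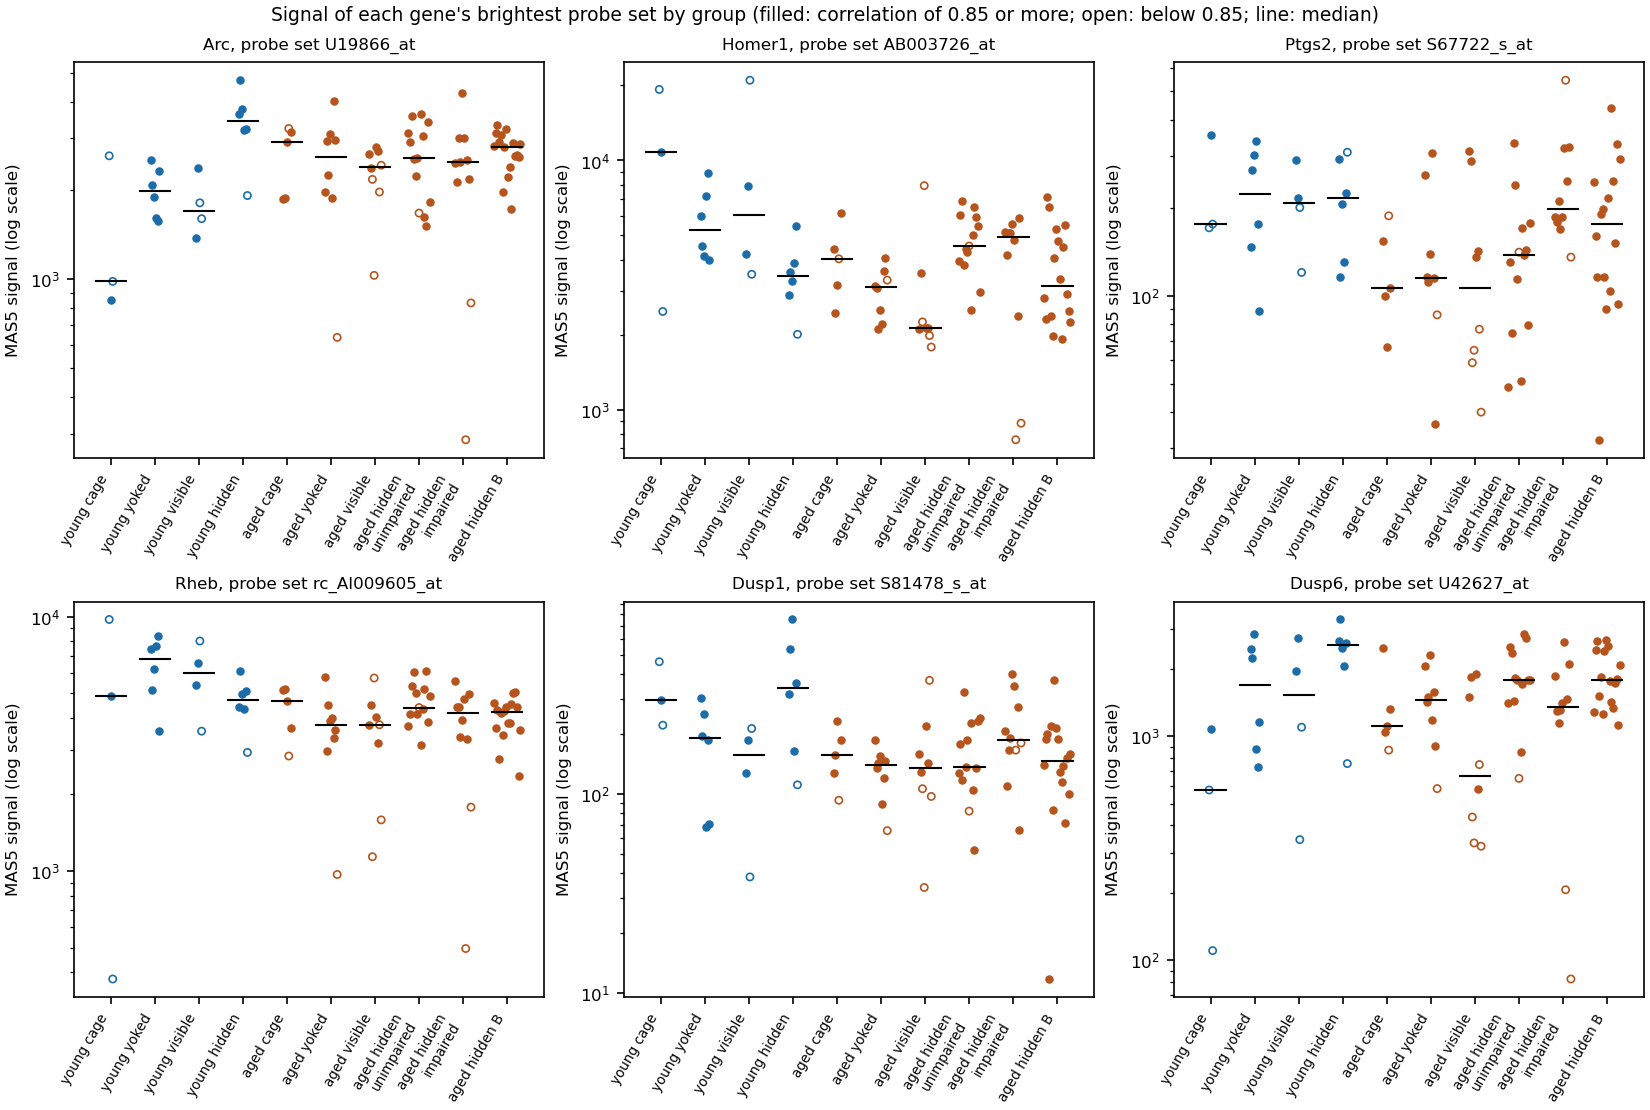
Signal on a log axis of the probe set of highest mean signal of each of the 6 genes, by group; each point is 1 rat, open points are arrays of correlation below 0.85, lines are medians, blue is young and orange aged. Arc in young hidden platform rats has a median of 3431.4 against 1993.1 in young yoked rats, and Homer1 AB003726_at runs from a median of 10808.5 in young cage controls to 2132.25 in aged visible platform rats.

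Differences below are on the log2(signal + 15) scale with their standard error, and calls are limma adjusted p-values under 0.05 over all 5244 probe sets. Arc was 1.33 ± 0.37 higher in young hidden platform rats than in young cage controls (6 against 3 rats, adjusted p = 0.0395). It was 0.74 ± 0.30 higher than in young yoked rats (unadjusted p = 0.0233, adjusted p = 0.999) and 0.90 ± 0.34 higher than in young visible platform rats (unadjusted p = 0.0140, adjusted p = 0.836). The first of these passed the threshold and the other two did not. Against yoked and visible platform rats, 0% of all probe sets were called, with 93 and 274 probe sets at an unadjusted p under 0.05. On the 65 arrays the difference from yoked rats was 0.89 ± 0.22 (unadjusted p = 0.000723, adjusted p = 0.773), and again 0% of all probe sets were called.

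The comparison with young cage controls called 5.28% of all probe sets and 2 of the 14 member probe sets, Arc and the Dusp6 probe set U42627_at. Of 5244 probe sets 277 were called, and leaving out 1 array moved that count to between 4 (without cage control rat 70) and 533 (without cage control rat 74). It was 34 without cage control rat 76, 56, 89, 106 and 116 without hidden platform rats 37, 40, 3 and 38, and it also rose without young visible platform rat 65. The median difference over all probe sets was -0.13, and over the 14 it was 0.05. The 3' end of the control transcripts exceeded their 5' end by a log2 ratio of 1.07 ± 1.39 (SD, n = 3) in young cage controls and 3.26 ± 0.41 (n = 6) in young hidden platform rats. Summed signals of blood markers ran from 375.8 to 1549.3 in the cage controls and from 1800.4 to 7911.6 in the hidden platform rats, without overlap. Summed oligodendrocyte markers ran from 4231.7 to 6781.5 and from 5009.7 to 22371.6, and the part of these in the result was not tested. With that ratio added to the fit the Arc difference was 1.53 ± 0.45 (adjusted p = 0.999), and the call was also lost with median centring (adjusted p = 0.118) and with no filter on low signals (adjusted p = 0.0595). On the 65 arrays a single young cage control, rat 74, remained, and Arc was 2.09 ± 0.39 higher (adjusted p = 0.0415), with 0.133% of all probe sets called.

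The Arc call was lost without any 1 of the 3 cage controls, with adjusted p = 0.0787 without rat 70, 0.104 without rat 74 and 0.112 without rat 76. It was also lost without hidden platform rat 2, 3, 37, 38 or 40, with adjusted p between 0.0586 and 0.0748. The difference itself stayed between 1.03 and 1.84 on leaving out each of the 19 young rats. Arc was 0.57 ± 0.31 lower in aged than in young hidden platform rats (adjusted p = 0.999), where 0% of all probe sets were called. It was 0.96 ± 0.49 higher in aged than in young cage controls (adjusted p = 0.163). The age by treatment interaction of Arc had an adjusted p of 0.358, in a test that called 0.305% of all probe sets and 0 of the 14 member probe sets. Its 16 calls over the whole table became 1 without young cage control rat 70 and 125 without young visible platform rat 65. They fell to between 5 and 10 without aged cage control rat 35, 36, 99 or 100, young hidden platform rat 3, 37 or 40, or young cage control rat 76. They rose to between 31 and 78 without young cage control rat 74, young hidden platform rat 2, young visible platform rat 30, young yoked rat 58 or 60, aged yoked rat 63 or 94, aged visible platform rat 67 or 68, or impaired rat 8 or 83. The count was 0 with quantile normalization, median centring or the 3' to 5' covariate. On the 65 arrays it was 0.0177, with 1.51% of all probe sets called and 3 of the 14, the other two being Homer1 AB003726_at and AB017140_g_at. That value rests on the 1 remaining young cage control.

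By the likeness of their patterns, Git1, Gnai2 and Ehmt2 were closest to Arc over the 79 arrays, with Spearman correlations of 0.644, 0.631 and 0.617 against a median of -0.06 over all probe sets. On the 65 arrays they were Git1 (0.561), Mgll (0.531) and Bcan (0.528). The arrays of such pairs share RNA quality and scaling, which these values include.

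The Homer1 probe sets did not share 1 pattern. Over all arrays probe set AF093268_s_at had its 4 highest group means in the hidden platform groups, an order that changed without 1 aged cage control, while AB003726_at had its highest medians in young rats not trained to a hidden platform. The form of Homer1 that each probe set reads is not given in the sources used here.

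For AF093268_s_at the median was 1581.8 in unimpaired rats (752.6 to 2748), 1387.75 in B rats (843.8 to 2022.5) and 1189.65 in impaired rats (471.8 to 1825.7). It was 1043.8 in young hidden platform rats (632.2 to 1823.3). In aged yoked rats it was 647.05 (571.6 to 1299.4), in aged visible platform rats 846.5 (506.2 to 1278.5), and in young yoked rats 734.55 (463.3 to 1441.7). The 4 hidden platform groups held the 4 highest group means on the log2 scale, from 10.69 down to 10.02, and the other 6 groups ran from 9.75 down to 8.94. Without aged cage control rat 36, which read 296, the aged cage mean was 10.12 and lay above the 10.02 of young hidden platform rats, as the aged cage median of 1124.1 did over all 5 arrays. The aged cage controls read 868.8, 296, 1182.1, 1124.1 and 1269.7. The young cage controls read 700.9, 1608.5 and 381.9, and the young visible platform rats 544.5, 430.6, 321.3 and 681.9. The ranges of all neighbouring groups overlapped, and the step from aged yoked to young visible platform rats was the 1 step of 9 larger than the mean SD of its groups.

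A test for any difference among the 10 groups called 25% of all probe sets and 3 of the 14 member probe sets, a share near the background. Its 1313 calls over the whole table became 846 without young cage control rat 70. These were Homer1 AF093268_s_at (adjusted p = 6.48e-05), Homer1 AB003726_at (0.0220) and Dusp6 U42627_at (0.0145). The AF093268_s_at call held under every alternative run for that test, with adjusted p between 2.53e-05 and 0.000304 on leaving out each of the 79 arrays. AB003726_at was not called without young cage control rat 70 (0.0671), nor U42627_at without young cage control rat 76 (0.0669). AB017140_g_at was called without impaired rat 8 (0.0307) or young cage control rat 76 (0.0497), Rheb rc_AI009605_at without young cage control rat 70 (0.0395) and Dusp1 S81478_s_at without young hidden platform rat 39 (0.0418). With the 65 arrays 26.4% of all probe sets and 5 of the 14 were called, among them Arc (0.000987) but not U42627_at (0.147).

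In the single comparisons AF093268_s_at did not reach the threshold. It was 0.83 ± 0.24 higher in the 23 aged hidden platform rats, impaired and unimpaired, than in the 8 aged yoked rats, and 20 of the 23 were above the yoked mean (unadjusted p = 0.000947, adjusted p = 0.999). It was 0.70 ± 0.24 higher than in aged visible platform rats (adjusted p = 0.265) and 0.66 ± 0.28 higher than in aged cage controls (adjusted p = 0.490). The last difference was 0.30 ± 0.29 without aged cage control rat 36 (adjusted p = 0.877). Those comparisons called 0% (yoked), 0.0191% (visible) and 0% (cage) of all probe sets, and 0 of the 14 member probe sets in each, with 155, 598 and 449 probe sets at an unadjusted p under 0.05. With the 65 arrays the 3 differences of AF093268_s_at were 0.88 ± 0.23, 0.77 ± 0.29 and 0.86 ± 0.29, with adjusted p of 0.473, 0.282 and 0.117, and the cage comparison called 1.33% of all probe sets. In young rats it was 1.07 ± 0.40 higher after hidden than after visible platform training (adjusted p = 0.836). All 6 Homer1 probe sets were higher after hidden than after visible platform training in aged rats, by 0.33 to 0.70, each short of the threshold. The hidden platform value is the mean of the unimpaired and impaired group means. For AB007688_s_at the unimpaired mean (6.72) lay below the visible platform mean (6.79), and the impaired mean was 8.075. Of the 14 member probe sets 12 were higher, with a median difference of 0.49 against -0.05 over all probe sets. Of the 8 visible platform arrays 4 were of low correlation.

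**Figure D2:**
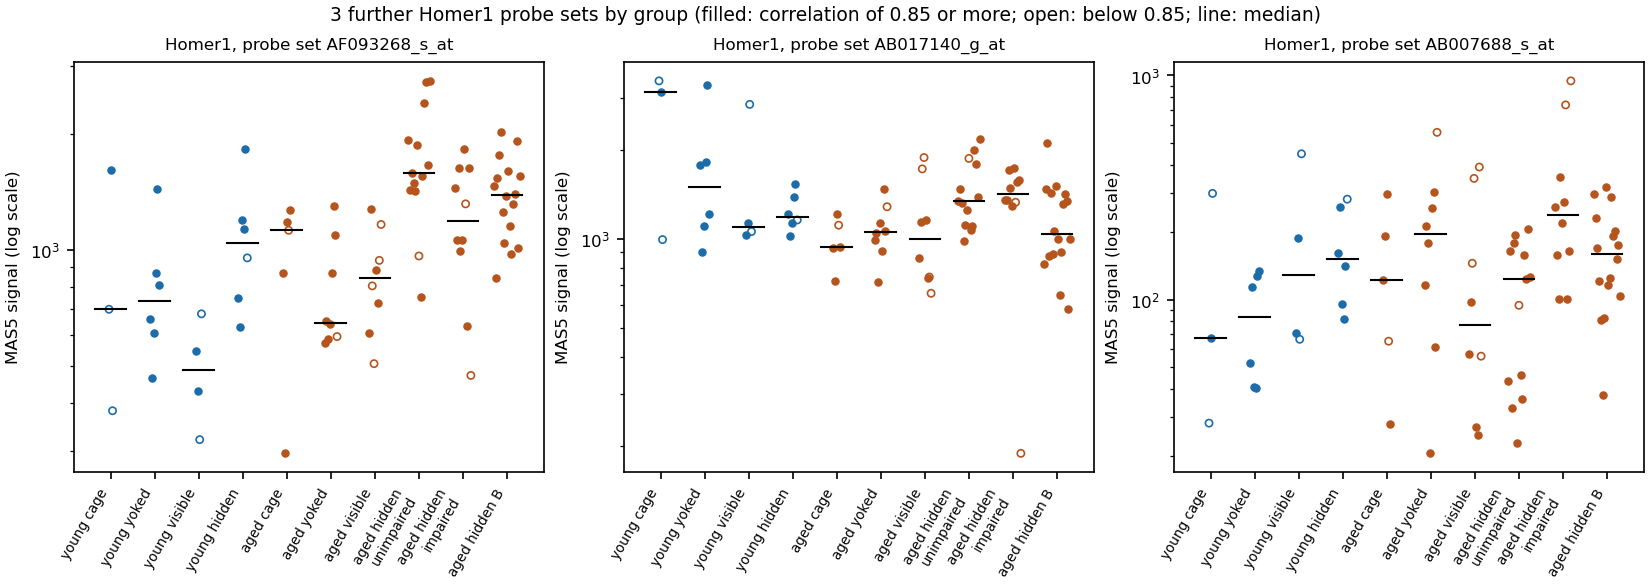
Signal on a log axis of Homer1 probe sets AF093268_s_at, AB017140_g_at and AB007688_s_at by group; each point is 1 rat, open points are arrays of correlation below 0.85 and lines are medians. AF093268_s_at has medians of 1581.8, 1387.75 and 1189.65 in the aged hidden platform groups and of 647.05 in aged yoked rats, while AB007688_s_at is highest in impaired rats, with a median of 239.

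AB003726_at is the Homer1 probe set of highest mean signal. It read 19278.1, 10808.5 and 2477.7 in young cage controls and 4225, 7864.8, 20993.2 and 3493.7 in young visible platform rats. The median was 5279.8 in young yoked rats (3989.8 to 8886) and 3427.5 in young hidden platform rats (2006 to 5479.9). The young cage and visible platform groups spread over a wider range of signal than any other group, and all young groups overlapped. In aged rats the median was 4028.6 in cage controls (2438.5 to 6147.7), 3098.8 in yoked rats (2112.1 to 4053.9) and 2132.25 in visible platform rats (1782.9 to 7925.4). It was 4537.4 in unimpaired rats (2502.8 to 6871), 4941.7 in impaired rats (757.1 to 5872.8) and 3129.85 in B rats (1925.7 to 7125.1).

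With treatment taken into account, AB003726_at was 0.61 ± 0.22 lower in aged than in young rats (44 against 19 rats, adjusted p = 0.0831). Of the 44 aged rats, 25 were below the young mean of their own treatment. This age comparison called 5.13% of all probe sets and 0 of the 14 member probe sets. Its 269 calls over the whole table became 171 without young cage control rat 70, 172 without young visible platform rat 65 and 178 without young cage control rat 74. They became 419 without aged visible platform rat 68, 426 without young yoked rat 59, 431 without aged yoked rat 63 and 434 without young hidden platform rat 37. The difference was -1.42 ± 0.46 among visible platform rats (0.0381% of all probe sets called, 0 of the 14), -1.06 ± 0.54 among cage controls, -0.91 ± 0.40 among yoked rats and 0.24 ± 0.34 among hidden platform rats. The difference was negative in 3 treatments and positive in the hidden platform rats, and the interaction had an adjusted p of 0.240 over all arrays. On the 65 arrays the age difference was -0.50 ± 0.17 (adjusted p = 0.0376), with 13.9% of all probe sets and 3 of the 14 called. Without aged visible platform rat 68, young hidden platform rat 39 or young cage control rat 76 it also passed, with adjusted p of 0.0497, 0.0388 and 0.0450. It did not pass with quantile normalization (-0.55 ± 0.21, adjusted p = 0.151) or median centring (-0.62 ± 0.29, adjusted p = 0.253). Without the 20 arrays of greatest disagreement within genes, which left no young cage control, it was -0.26 ± 0.17 (adjusted p = 0.357).

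Probe set AB017140_g_at followed AB003726_at, with an age difference of -0.36 ± 0.17 (adjusted p = 0.202). Without the 20 arrays of greatest disagreement it differed by -0.01 ± 0.12 (adjusted p = 0.953). It was 1.18 ± 0.43 lower in aged than in young cage controls (adjusted p = 0.0485), where 17% of all probe sets were called, and it was the 1 of 14 called there. AF093268_s_at went the other way with age, by 0.35 ± 0.17 (adjusted p = 0.221). AB017140_at, AF093267_s_at and AB007688_s_at differed with age by -0.09 ± 0.13, -0.04 ± 0.17 and 0.14 ± 0.31.

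Whether 2 probe sets of 1 gene changed unequally was tested by permutation on the difference of their log2 values, over 18 pairs and 10 comparisons. This test was added after the data were seen, and 3 of 180 tests passed after adjustment over all of them. In the age comparison AB003726_at fell by 0.96 relative to AF093268_s_at (permutation within treatments, adjusted p = 0.0108). AB017140_g_at fell by 0.71 relative to AF093268_s_at (permutation, adjusted p = 0.0108). Both stayed past the threshold on the 65 arrays, at -0.76 (permutation, adjusted p = 0.0252) and -0.55 (permutation, adjusted p = 0.0468). The third was AF093268_s_at relative to AB007688_s_at, which fell by 1.89 from unimpaired to impaired rats (permutation, adjusted p = 0.0204), and on the 65 arrays by 1.42 (permutation, adjusted p = 0.0740). The size of an age difference in Homer1 depended on which probe set was read.

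Across arrays the Homer1 probe sets followed each other to unequal degrees. Of the 15 pairs of Homer1 probe sets, AB017140_g_at and AB017140_at had the highest Spearman correlation, 0.714 over 79 arrays and 0.725 over 65. AB003726_at and AF093268_s_at had 0.274 and 0.374 (permutation adjusted p = 0.0276 and 0.0041). They were thus positively correlated, although their age differences had opposite signs. AB007688_s_at lay between -0.144 and 0.133 with each of the other 5 over 79 arrays. Over all 21 same-gene pairs of the 6 genes, 11 passed an adjusted permutation p of 0.05 on Spearman's rho, all positive, and 12 did so over the 65 arrays. How many other pairs of probe sets would pass was not computed.

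**Figure D3:**
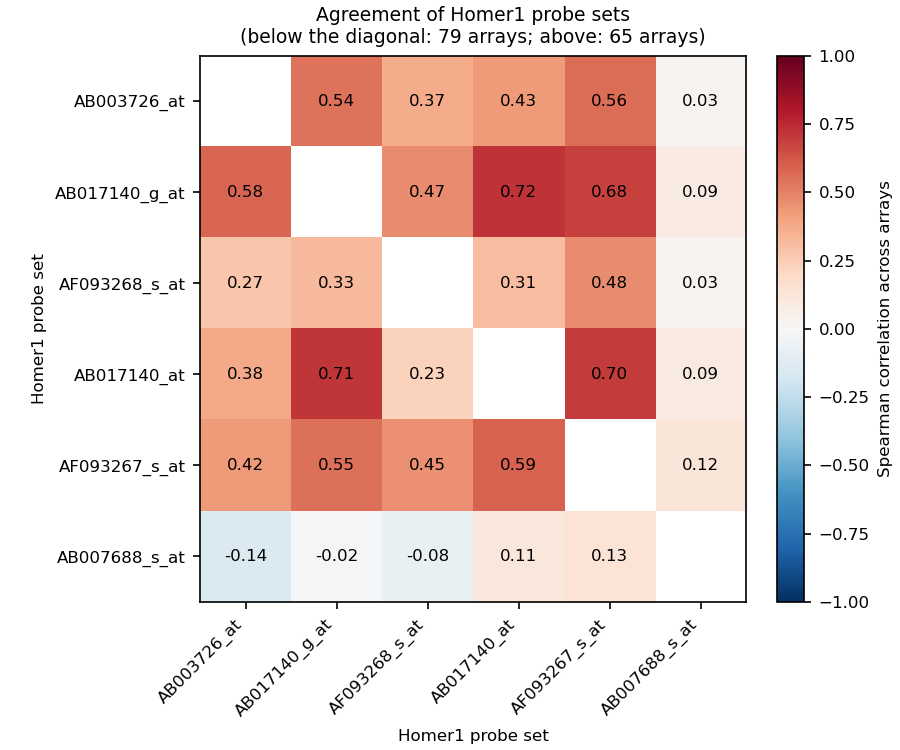
Spearman correlation between the 6 Homer1 probe sets across arrays, as a colour scale from -1 to 1 with each value printed; cells below the diagonal use 79 arrays and cells above use the 65 arrays of higher correlation. AB007688_s_at stands apart from the other 5 probe sets with 79 and with 65 arrays.

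Impaired and unimpaired learners did not differ in any member probe set past the threshold, nor in any other probe set (0% called, with 677 at an unadjusted p under 0.05). AB007688_s_at had a median of 239 in impaired rats (100.5 to 945.8) against 124 in unimpaired rats (22.9 to 207.5). That is a difference of 1.35 ± 0.44, with 10 of 10 impaired rats above the unimpaired mean on the log2 scale (adjusted p = 0.312). Its signals were low, and 2 of the impaired arrays were of low correlation. Its difference on the 65 arrays was 0.94 ± 0.40 (adjusted p = 0.315). AF093268_s_at was 0.54 ± 0.24 lower in impaired rats (adjusted p = 0.352), with 9 of 10 below the unimpaired mean. Summed CA1 and pyramidal neuron markers ran from 4420.2 to 50090.4 in impaired rats and from 42563.6 to 63359.7 in unimpaired rats, and the part of this in the differences was not tested.

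The genes whose pattern was most like AB003726_at on the 65 arrays were Egr2 (Spearman 0.654), Egr1 (0.612) and Tpm1 (0.599), against a median of -0.03 over all probe sets. Egr1 and Egr2 are activity-induced zinc finger transcription factors. Over all 79 arrays the likeness was 0.433 for Egr2 and 0.496 for Egr1, and Tpm1 (0.662), Zranb2 (0.661) and Ptp4a1 (0.659) came first. Likeness was not computed for the other Homer1 probe sets. Because AB003726_at varied with Egr1 and Egr2 on the 65 arrays, the 150 bases before the RefSeq start of Homer1, Egr1 and Egr2 are shown. They are on the strand of the gene and in build GRCr8. Dusp1, Ptgs2 and Rheb are shown beside them because their windows hold matches too.
Homer1, chr2:26278862-26279011, plus strand: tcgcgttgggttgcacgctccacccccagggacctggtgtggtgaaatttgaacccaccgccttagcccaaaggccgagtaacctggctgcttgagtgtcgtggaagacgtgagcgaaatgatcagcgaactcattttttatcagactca
Egr1, chr18:26736928-26737077, plus strand: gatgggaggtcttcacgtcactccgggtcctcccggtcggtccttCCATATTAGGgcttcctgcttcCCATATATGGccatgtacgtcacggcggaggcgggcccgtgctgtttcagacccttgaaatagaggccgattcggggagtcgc
Egr2, chr20:21054442-21054591, minus strand: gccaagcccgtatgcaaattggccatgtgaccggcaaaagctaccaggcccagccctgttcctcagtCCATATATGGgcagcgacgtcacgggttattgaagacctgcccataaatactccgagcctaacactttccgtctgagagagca
Dusp1, chr10:17184703-17184852, plus strand: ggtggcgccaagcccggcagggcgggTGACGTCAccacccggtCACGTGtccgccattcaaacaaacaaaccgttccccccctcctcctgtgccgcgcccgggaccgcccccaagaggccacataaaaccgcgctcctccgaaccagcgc
Ptgs2, chr13:64713913-64714062, plus strand: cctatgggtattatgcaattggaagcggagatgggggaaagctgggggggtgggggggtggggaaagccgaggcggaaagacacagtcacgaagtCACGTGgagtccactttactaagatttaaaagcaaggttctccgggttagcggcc
Rheb, chr4:11013233-11013382, plus strand: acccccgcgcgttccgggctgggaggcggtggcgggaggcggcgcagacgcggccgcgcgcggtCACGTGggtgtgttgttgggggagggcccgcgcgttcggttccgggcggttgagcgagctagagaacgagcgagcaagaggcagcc
Capitals mark matches to 5 motifs searched on both strands: the cAMP response element TGACGTCA, the E-box CACGTG, the TATA box TATAAA, the EGR site GCGNGGGCG, and the CArG box bound by serum response factor. Of the 33469 RefSeq rat promoters with such a window, 1.36%, 3.74%, 8%, 3.32% and 0.878% held them. Egr1 held 2 CArG boxes, Egr2 held 1, Dusp1 a cAMP response element and an E-box, Ptgs2 an E-box, and Rheb an E-box 86 to 81 bases before its start. The Homer1 and Dusp6 windows held none of these letters. Of the 6 members, 5 had an entry, and Arc is named only. These matches describe the sequence and were not tied to any binding data.

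Ptgs2 gave 2 probe sets that did not follow each other. S67722_s_at had a median of 198.05 in impaired rats (135.4 to 546) and 137.4 in unimpaired rats (48.8 to 331.6). It was 215.55 in young hidden platform rats (115.8 to 309.5), 221.9 in young yoked rats (88.8 to 338.6) and 115.1 in aged yoked rats (36.3 to 306.5). Groups overlapped throughout. With treatment taken into account it was 0.55 ± 0.21 lower in aged rats (adjusted p = 0.0955). Of 44 aged rats, 33 were below the young mean of their own treatment. It was 0.81 ± 0.31 higher in impaired than in unimpaired rats (adjusted p = 0.314), with 10 of 10 above the unimpaired mean, and 0.77 ± 0.29 over the 65 arrays.

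The other Ptgs2 probe set, L25925_s_at, differed by -0.06 ± 0.26 with age and by -0.02 ± 0.40 between impaired and unimpaired rats. Its signals ran from 23 to 982.4, with a median of 95.7. The Spearman correlation of both Ptgs2 probe sets was -0.04 over 79 arrays and 0.07 over 65. Genes most like S67722_s_at were Tra2b (0.537), Ubr1 (0.501) and Psma1 (0.498) over 79 arrays, and Eif5 (0.639), Ubr1 (0.621) and Bdnf (0.612) over 65.

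Rheb was read by rc_AI009605_at at high and by rc_AA851381_at at low signal. For rc_AI009605_at the median was 6837.95 in young yoked rats (3536.1 to 8345.3) and 3738.45 in aged yoked rats (968.5 to 5800.5). In hidden platform rats it was 4684.45 in young (2922.4 to 6090.3), 4387.4 in unimpaired (3113.1 to 6096.9), 4168.05 in impaired (495.5 to 5584.4) and 4219.55 in B rats (2360.6 to 5036.2). The young cage controls read 9734.2, 4850.5 and 376.1, a wider range than in any other group. The age difference was -0.41 ± 0.23 (adjusted p = 0.304) over all arrays. For the 65 arrays it was -0.38 ± 0.11 (adjusted p = 0.0127), and without young cage control rat 76 alone it was -0.60 ± 0.19 (adjusted p = 0.0467).

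The second Rheb probe set differed with age by -0.18 ± 0.21, or -0.31 ± 0.14 over the 65 arrays (adjusted p = 0.120). Both differences were negative in both fits, and their Spearman correlation across arrays was -0.17 over 79 and 0.02 over 65. The genes most like rc_AI009605_at were Tomm20 (0.869), Cript (0.824) and Ndufc2 (0.819) over 79 arrays, and the same 3 over 65. Tomm20 is part of the mitochondrial import pore and Ndufc2 a subunit of respiratory complex I.

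Dusp6, which acts on ERK, was lowest in young cage controls. U42627_at read 576, 1072.9 and 110.6 in these 3 rats and 2673.8, 3322.1, 2488.9, 2050.3, 2615.4 and 755.8 in young hidden platform rats. The median was 1702.6 in young yoked rats (726.8 to 2866.4), and young visible platform rats read 1966.3, 2736.7, 345.9 and 1098.3. Of the hidden platform rats, rat 39 alone was within the range of the cage controls. In aged rats the medians ran from 665.35 in visible platform rats (323.3 to 1900.8) to 1787.8 in B rats (1119 to 2699.7).

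U42627_at was 2.30 ± 0.65 higher in young hidden platform rats than in young cage controls (adjusted p = 0.0422). The second probe set, X94185cds_s_at, was 1.86 ± 0.70 higher (adjusted p = 0.107), and both probe sets were higher in 6 of 6 hidden platform rats than the cage mean. The call of U42627_at was lost with the log2 ratio of control ends in the fit (0.98 ± 0.65, adjusted p = 0.999), with median centring (2.46 ± 0.84, adjusted p = 0.118) and over the 65 arrays (1.27 ± 0.61, adjusted p = 0.377). The same call was lost with robust eBayes without trend (2.30 ± 0.67, adjusted p = 0.0514). Single arrays also ended it, with adjusted p of 0.131 without cage control rat 70 and 0.222 without rat 76, where the difference was 1.41 ± 0.66. Leaving out hidden platform rat 2, 3, 37, 38 or 40 gave adjusted p between 0.0623 and 0.0788. The differences in quality and in blood and oligodendrocyte markers between these groups, given above, apply to this result as well.

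The 2 Dusp6 probe sets had a Spearman correlation of 0.555 over 79 arrays and 0.621 over 65. B rats were higher than impaired rats by 0.86 ± 0.33 in U42627_at (adjusted p = 0.0679), and 16 of 16 were above the impaired mean. That comparison called 12.0% of all probe sets and 0 of the 14 member probe sets. The count over the whole table was 187 without impaired rat 83, 201 without impaired rat 8, and between 382 and 415 without B rat 12, 13 or 90 or impaired rat 50. Of its 629 calls 304 were higher in B rats, against 939 of 1051 with median centring and 321 of 417 with quantile normalization. B rats against unimpaired rats called 0.0572% and 0 of the 14. Without impaired rat 44, 52 or 56, U42627_at passed in B against impaired rats, with adjusted p of 0.0435, 0.0292 and 0.0458, and AB017140_at of Homer1 passed without B rat 41 (0.0458). With the 65 arrays the U42627_at difference was 0.18 ± 0.20 (adjusted p = 0.599), where 9.34% of all probe sets were called, and B against unimpaired rats called 1.66%; 0 of the 14 were called in either. Genes most like U42627_at over 79 arrays were Mtch2 (0.834), Sec11a (0.800) and Nsg1 (0.797), and over 65 they were Mtch2 (0.751), Rpn2 (0.707) and Ddx50 (0.705).

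Dusp1, which acts on several MAP kinases, gave 1 probe set above the filter. S81478_s_at had a median of 340.35 in young hidden platform rats (111.4 to 753.7) and 191.15 in young yoked rats (68.6 to 302.4). It read 462.5, 296.1 and 222 in young cage controls and 127, 187.4, 38.4 and 213.7 in young visible platform rats. The medians of the 6 aged groups lay between 136.1 and 186.1. Aged rats were 0.51 ± 0.21 lower (adjusted p = 0.126), with 35 of 44 below the young mean of their own treatment. With the 65 arrays the difference was -0.58 ± 0.20 (adjusted p = 0.0485). Among hidden platform rats alone it was -0.85 ± 0.33 (unadjusted p = 0.0133, adjusted p = 0.999).

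In young rats, S81478_s_at was 1.25 ± 0.53 higher after hidden than after visible platform training (adjusted p = 0.836) and 0.92 ± 0.47 higher than in yoked rats (adjusted p = 0.999). The 2 Dusp1 probe sets below the filter, U02553cds_s_at and S74351_s_at, had mean signals of 67.1 and 26.3. Their Spearman correlation was 0.745 with each other, and -0.06 and -0.14 with S81478_s_at. In the fit without a filter their age differences were -0.22 ± 0.20 and -0.01 ± 0.24. The genes most like S81478_s_at on the 65 arrays were Egr2 (0.452), Pcna (0.448) and Ube2b (0.412).

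**Figure D4:**
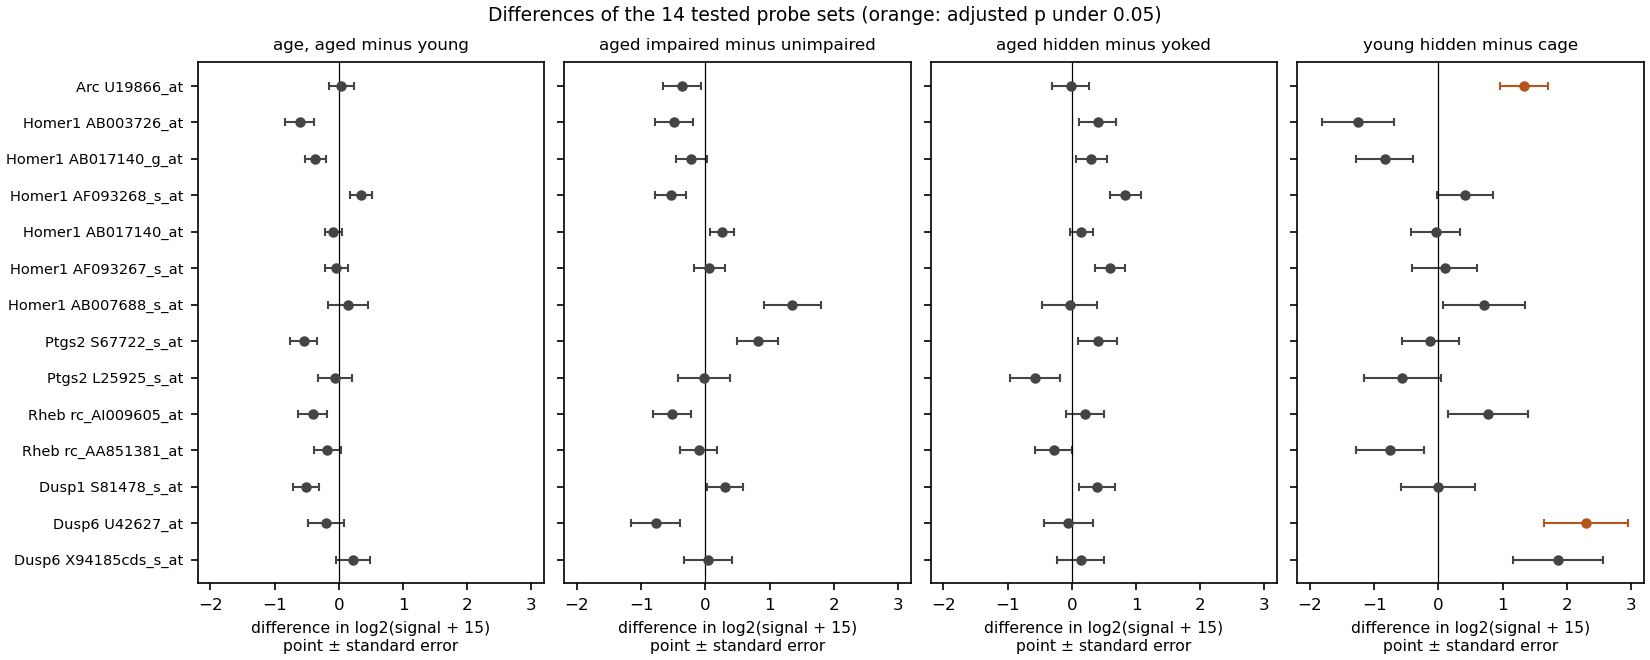
Difference in log2(signal + 15) with its standard error for the 14 tested probe sets in 4 comparisons; orange points have an adjusted p under 0.05. Arc (1.33) and Dusp6 U42627_at (2.30) in young hidden platform rats against young cage controls are the called points, and the 6 Homer1 probe sets spread from -0.61 to 0.35 in the age comparison.

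Between genes, 15 pairs were compared with 1 probe set each. Over 79 arrays 7 passed an adjusted permutation p of 0.05 on Spearman's rho, all positive. Over the 65 arrays 7 passed, 5 of them positive. The share of other pairs of probe sets that would pass was not computed, so these counts have no background beside them. Homer1 AB003726_at and Rheb had r = 0.598 and rho = 0.558, with permutation adjusted p of 7.5e-05 and 0.00015, and r = 0.513 without the 2 farthest arrays. Arc and Dusp6 had r = 0.586 and rho = 0.371 (permutation adjusted p = 7.5e-05 and 0.00375), with r = 0.521 without the 2 farthest arrays and rho = 0.151 over the 65 arrays. Arc and Rheb had r = 0.426 and rho = -0.132 (permutation adjusted p = 0.00349 and 0.339), and r = 0.111 without the 2 farthest arrays. That pair had, on the 65 arrays, r = -0.366 and rho = -0.397 (permutation adjusted p of rho = 0.0059). The positive r of Arc and Rheb rested on arrays of low correlation. Arc and Ptgs2 S67722_s_at had rho = -0.241 over 79 arrays and -0.400 over 65, with permutation adjusted p of 0.0590 and 0.0059. Within groups, on deviations from group means, Arc and Ptgs2 had rho = -0.281 over 79 arrays and -0.438 over 65. Arc and Rheb had 0.110 over 79 arrays and -0.082 over 65 on such deviations. The permutations exchanged arrays across all groups, so the p-values of these correlations include differences between groups.

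Genes related to the members were described in 6 lists, with 1 probe set for each gene. Among other effector immediate early genes, 14 of 20 on the array were tested and 0 were called with age, where 4.67% of 3233 genes were called. Their median age difference was -0.06, equal to that of all genes at 2 decimals. Nptx2, a secreted pentraxin that gathers AMPA receptors, and Bdnf, a neurotrophin, differed by -0.34 ± 0.14 (adjusted p = 0.131) and -0.43 ± 0.20 (adjusted p = 0.177). Against young cage controls 1 of the 14 was called, Adcyap1, which encodes the neuropeptide PACAP and rose by 1.81 ± 0.50 (adjusted p = 0.0385), where 4.30% of genes were called. That comparison left 0 of 5244 probe sets called with the 3' to 5' covariate and 7 without the arrays of low correlation. The 3' to 5' ratio differed between its groups, as given for Arc, and its part in these genes was not tested. Adcyap1 was 0.92 ± 0.53 higher with the covariate (adjusted p = 0.999) and 0.61 ± 0.50 on the 65 arrays (adjusted p = 0.675), and was also not called with median centring (adjusted p = 0.103) or without any 1 of 7 of the 19 young rats (cage rats 70 and 76, hidden platform rats 2, 3, 37, 38 and 40). In B against impaired rats Nrn1 rose by 0.56 ± 0.19 (adjusted p = 0.0469) and Sgk1 by 0.69 ± 0.24 (adjusted p = 0.0492), where 12.2% of genes were called. Nrn1 kept its call in 6 and Sgk1 in 5 of 12 alternatives, and in 40 and 20 of the 60 fits that left out 1 aged rat.

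Of immediate early transcription factors, 22 of 25 on the array were tested. With age, where 4.67% of all genes were called, 1 was called. This was Egr2, which fell by 0.87 ± 0.21 (adjusted p = 0.00768). The list's median age difference was -0.14 against -0.06 for all genes, and 5 of 22 were higher in aged rats. In B against impaired rats 2 of the 22 were called, where 12.2% of all genes were. Nr4a1 rose by 0.95 ± 0.23 (adjusted p = 0.0073) and Btg1 by 0.78 ± 0.25 (adjusted p = 0.0335). Egr2 was called in all 12 alternatives and without any 1 of the 63 arrays, while Btg1 was not called on the 65 arrays (adjusted p = 0.103).

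Among binding partners of Arc and Homer, 15 of 20 were tested. With age, where 4.67% of all genes were called, 1 was called. Gria1, an AMPA receptor subunit, rose by 1.94 ± 0.44 (adjusted p = 0.00441). Gria1 and Camk2b, a subunit of CaM kinase II, also rose in young hidden platform rats against cage controls, by 4.16 ± 1.01 (adjusted p = 0.0262) and 1.94 ± 0.54 (adjusted p = 0.0385). These 2 of 15 stand beside 4.30% of all genes. With the covariate, which left 0 calls in the whole table, Gria1 was 2.45 ± 1.10 and Camk2b 0.94 ± 0.55 higher (adjusted p = 0.999 for both). On the 65 arrays, where 7 probe sets were called, they were 2.35 ± 1.23 (adjusted p = 0.418) and 1.04 ± 0.59 higher (adjusted p = 0.461). Neither was called with median centring, nor without young cage control rat 70 or 76 or hidden platform rat 37 or 40, nor Camk2b without hidden platform rat 3 or 38. Homer3, a relative of Homer1, fell by 1.39 ± 0.38 in B against impaired rats (adjusted p = 0.0144), where 12.2% of all genes were called. Its call was lost without impaired rat 8 or 83.

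Of the prostaglandin pathway, 12 of 21 genes were tested. Mgll, which breaks down the endocannabinoid 2-AG, rose with age by 0.51 ± 0.16 (adjusted p = 0.0499), a call kept in 4 of 12 alternatives. Ptgds, prostaglandin D synthase, rose by 2.42 ± 0.42 in young hidden platform rats against cage controls (adjusted p = 0.00839). It was 2.34 ± 0.52 higher with the covariate (adjusted p = 0.295) and 2.80 ± 0.59 on the 65 arrays (adjusted p = 0.0815), and kept its call without any 1 of the 19 young rats. Summed choroid plexus markers ran from 319.3 to 43441.4 in young hidden platform rats (median 846.45) and from 593.9 to 1644.4 in young cage controls (median 831.5). Their part, and that of the oligodendrocyte markers, in the Ptgds difference was not tested. In B against impaired rats Pla2g4a, which releases arachidonic acid, fell by 1.16 ± 0.25 (adjusted p = 0.00266). Ptgs1, the constitutive cyclooxygenase, fell there by 0.88 ± 0.29 (adjusted p = 0.0365). Pla2g4a kept its call in 11 of 11 alternatives and Ptgs1 in 8 of 12. Over all genes 4.67% were called with age, 4.30% in young hidden platform against cage rats and 12.2% in B against impaired rats.

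Of the Rheb and mTOR pathway, 16 of 21 genes were tested and 1 was called with age. Tsc2, whose product holds Rheb inactive, rose by 0.50 ± 0.15 (adjusted p = 0.0320), a call kept in 7 of 12 alternatives and lost on the 65 arrays (0.29 ± 0.13, adjusted p = 0.132). In B against impaired rats Rps6kb1 fell by 0.87 ± 0.23 (adjusted p = 0.0144) and Igf1r by 0.75 ± 0.23 (adjusted p = 0.0317), while Eif4ebp1 rose by 0.75 ± 0.25 (adjusted p = 0.0409). All 3 lost their call without impaired rat 83, and Eif4ebp1 on the 65 arrays too (adjusted p = 0.238). Of MAP kinases and their phosphatases, 21 of 24 were tested. Rasgrp1, a Ras activator, rose with age by 0.92 ± 0.26 (adjusted p = 0.0262), and was not called without young cage control rat 70 or young yoked rat 58. Map3k12 and Ppp2r1a rose in young hidden platform rats against cage controls, by 2.58 ± 0.59 (adjusted p = 0.0213) and 2.15 ± 0.57 (adjusted p = 0.0357). With the covariate they were 1.57 ± 0.64 and 1.17 ± 0.61 higher (adjusted p = 0.999 for both), and on the 65 arrays 2.82 ± 0.85 (adjusted p = 0.168) and 1.75 ± 0.63 (adjusted p = 0.240). Neither was called with median centring or without young cage control rat 70 or 76, nor Ppp2r1a without hidden platform rat 2, 3, 37, 38 or 40. In B against impaired rats Ptpn5, a phosphatase of ERK, rose by 0.52 ± 0.16 (adjusted p = 0.0345) and Araf, a Raf kinase, fell by 0.63 ± 0.21 (adjusted p = 0.0405). Ptpn5 kept its call in 8 and Araf in 7 of 12 alternatives, and neither was called on the 65 arrays. The share of all genes called was 4.67% with age, 4.30% in young hidden platform against cage rats and 12.2% in B against impaired rats. The age by treatment interaction called 1 gene each of the prostaglandin and MAP kinase lists, Ptgds and Map3k12 (adjusted p = 0.00711 for both), where 0.217% of genes were called. Both calls were lost with quantile normalization (adjusted p = 0.0612 for both), median centring (adjusted p = 0.0869 and 0.0572) and the covariate (adjusted p = 0.318 for both), settings in which that test called 0 of 5244 probe sets. Ptgds also lost it without young cage control rat 76 (adjusted p = 0.0677) and Map3k12 without young cage control rat 70 (adjusted p = 0.0986).

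The test over 10 groups called 2, 4, 3, 3, 4 and 5 genes of the lists in the order given, where 22.9% of genes were called. Of the effector genes these were Adcyap1 (adjusted p = 0.00157) and Sgk1, a kinase (adjusted p = 0.0418). Of the transcription factors they were Egr2 (adjusted p = 0.00131), Nr4a1 (adjusted p = 0.0125), Klf10 (adjusted p = 0.0414) and Myc (adjusted p = 0.0483), and of the binding partners Gria1 (adjusted p = 2.24e-05), Camk2b (adjusted p = 0.0120) and Homer3 (adjusted p = 0.0305). In the prostaglandin pathway they were Ptgds (adjusted p = 0.00134), Mgll (adjusted p = 0.00649) and Pla2g4a (adjusted p = 0.00771). In the Rheb and mTOR pathway they were Pdpk1, the kinase that activates Akt (adjusted p = 0.00728), Tsc2 (adjusted p = 0.00954), Igf1r (adjusted p = 0.0341) and the ribosomal protein Rps6 (adjusted p = 0.0368). Of the MAP kinases they were Map3k12 (adjusted p = 6.32e-05), the Ras activators Sos1 (adjusted p = 0.00244) and Rasgrp1 (adjusted p = 0.00771), Map3k1 (adjusted p = 0.0124) and Ppp2r1a (adjusted p = 0.0136). Egr2, Gria1, Camk2b, Ptgds, Mgll and Map3k12 kept these calls in all 11 alternatives, while Myc kept it in 4 of 10, Klf10 in 5 of 11 and Rps6 in 6 of 11.

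Aged hidden against visible platform rats called 0 genes of the lists, where 0.0309% of genes were. In aged hidden platform rats against yoked rats 0 genes of the 6 lists were called, where 0% of all genes were.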

How the data were processed

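Signal of 79 arrays, 1 per rat, was analysed. The deposited intensity values are linear MAS5 signals, made by the authors per the submitters' processing notes, from RNA that went through 2 rounds of amplification per the labels' protocols. A mean without the highest and lowest 2% of values was 500.09 to 500.98 on every array, so the deposited intensity values were already scaled to a common level. Scan dates were not used here. Groups came from the sample titles. Of 8799 probe sets, 59 controls were left out. Gene symbols came from the platform annotation, where 7018 probe sets had 1 symbol, 308 several and 1426 none.

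Values were tested as log2(signal + 15), which understates the change of low signals, once probe sets in the lowest 40% by mean signal had been dropped. The fits used lmFit and eBayes with trend from limma 3.58.1 under R 4.3.3, were two-sided and came with Benjamini-Hochberg adjustment over 5244 probe sets. The age fit used 63 arrays, without B rats, with treatment as a factor. Fits within an age used that age's arrays, and fits with B rats used all 60 aged arrays. Correlations and probe set differences used 100000 permutations, two-sided, with scipy 1.17.1. The fits were tested on simulated data, where most small changes went uncalled in the comparisons of few rats, so 0 calls does not show that values did not differ.

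The members and lists were chosen with earlier results of these data known. All member probe sets are named. From each list the genes past the threshold are named, at most 4 per comparison (5 in the test over 10 groups, where Ppp2r1a was added after its value was seen), otherwise at most 2 of smallest unadjusted p. Likeness is the highest Spearman correlation, 3 genes each. The probe set differences were tested after the data were seen.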

Additional observations from a re-analysis of the deposited data

Results flagged for a closer look

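In groups of 4 to 10 rats, 112 tests for a lone extreme value (16 probe sets in 7 groups, Dixon's criterion on the log2 scale) marked 16 values, of which 14 were on arrays of low correlation. Chance marks about 1 in 20. Aged yoked rat 63 was low in Arc (635.7) and Rheb rc_AI009605_at (968.5), and high in Rheb rc_AA851381_at (721.8), Dusp1 U02553cds_s_at (162.7) and Dusp1 S74351_s_at (108.7). Aged visible platform rat 68 was low in Arc (1031.1) and high in Homer1 AB003726_at (7925.4).

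Young hidden platform rat 39 was low in Dusp6 U42627_at (755.8) and high in Dusp1 S74351_s_at (132.2). Impaired rat 8 was low in Homer1 AB017140_g_at (188.3) and AF093267_s_at (90.2). Impaired rat 83 was low in Rheb rc_AI009605_at (495.5) and high in Homer1 AB017140_at (2173.8). Young visible platform rat 65 was high in Homer1 AB017140_g_at (2851.8). The 2 values on arrays of higher correlation were young yoked rat 23, high in Dusp1 U02553cds_s_at (215.6), and aged cage control rat 36, low in Homer1 AF093268_s_at (296).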

How the results depend on the processing

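No paired analysis was made. Rat numbers are not shared between groups, and the titles name no trained partner for a yoked rat. Any such pairing was not taken into account. Array quality weights called 4 member probe sets with age, where 1134 of 5244 were called, and 5 for the interaction, where 1850 were. They called 4, 1 and 3 for aged hidden against visible, yoked and cage rats, where 513, 8 and 118 of all probe sets were called. Young hidden against cage rats gave 6, beside 1484 of all probe sets, and B against impaired rats 1, beside 782. Any group difference gave 10, beside 3921 of all probe sets. Without the 14 arrays of low correlation the counts were 3 with age, 3 for the interaction, 1 for young hidden against cage rats and 5 for any group difference. Dropping the 20 arrays of greatest disagreement within genes left 2 called with age, beside 307 of all probe sets. The interaction, the test over 10 groups and young hidden against cage rats could not be fitted there, as no young cage control was left.

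Young hidden against cage rats called 1 of 14 with no filter, 0 with median centring, 1 with robust eBayes without trend and 0 with the 3' to 5' covariate. The calls over the whole table in these settings were 204 of 8740, 23, 227 and 0. B against impaired rats called 2 with no filter, 1 with quantile normalization and 2 with median centring. Leaving out each array in turn gave 0 to 2 called with age, 0 to 2 for young hidden against cage rats and 0 to 1 for B against impaired rats. The correlations whose Pearson r passed the threshold over 79 arrays and turned sign on the 65 were Homer1 AB003726_at with AB007688_s_at (r = 0.0341) and Rheb with Arc (r = -0.37). The causes were not tested. Over all alternatives that kept every array or dropped a set of them, 1924 member results kept their side of the threshold and either their direction or a value within 1 SD between replicates, 45 newly passed, 11 no longer did, 14 short of the threshold changed sign beyond that, or as correlations, and 2 correlations past it reversed. Of the counts and other main results 123 stayed within range and 20 moved.

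For all probe sets, the age count was 269, against 77 with median centring, 97 with quantile normalization, 480 in 1 fit over 79 arrays, 727 without the arrays of low correlation and 1134 with weights. Young hidden against cage rats went from 277 to 23 with median centring, 7 without the arrays of low correlation, 748 in 1 fit, 1484 with weights and 0 with the covariate. B against impaired rats went from 629 to 1864 with no filter (392 higher), 409 with the lowest 60% left out, 125 without the 20 arrays of disagreement, 417 with quantile normalization (321 higher) and 1051 with median centring (939 higher), against 304 of 629 higher. The interaction went from 16 to 0 with quantile normalization, median centring and the covariate, 43 with the lowest 60% left out, 79 without the arrays of low correlation, 190 in 1 fit and 1850 with weights, and to 10 with robust eBayes without trend. Leaving out 1 array gave 171 to 434 calls with age, 1 to 125 for the interaction, 846 to 1565 over 10 groups, 4 to 533 for young hidden against cage rats, 187 to 895 for B against impaired rats and 0 to 9 for aged hidden against visible rats (1 over all arrays). The test over 10 groups went from 1313 to 759 with quantile normalization, 761 with the covariate and 3921 with weights. Homer1 AB003726_at lost its call there with quantile normalization (0.0733) and median centring (0.0848), and Dusp6 U42627_at with the covariate (0.147).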
